A study of Mus musculus with 4 samples.

Results

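The near-start intron peaks described here were 3326 TOP2B binding sites in the introns of protein-coding genes of mouse thymocytes. They were chosen by their positions in the deposited lists. Each was a peak of the ChIPseq library made with the Santa Cruz antibody that shared no base with any peak of the library made with the Novus antibody, and its centre lay inside a protein-coding gene, outside the exons of protein-coding transcripts, and more than 1 kb but at most 20 kb from the nearest protein-coding transcription start. They made up 19.9% (95% Clopper-Pearson interval 19.3 to 20.5) of the 16751 Santa Cruz peaks without a Novus overlap and 18.7% of the 17754 peaks of the Santa Cruz list. These figures follow from the rule and are given as a description, with no test. Per the authors' methods, their TOP2B peak set held only peaks called with both antibodies, so the peaks described here were not part of it. Of the 3326 peaks, 89 had the centre in an exon of a transcript that is not protein-coding, which leaves 3237 in no annotated exon.

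The thymocytes were fresh, came from wild-type C57BL/6 mice aged 4 to 6 weeks, with no treatment named, and had been fixed with formaldehyde. TOP2B was precipitated with an antibody of Santa Cruz in 1 library and with one of Novus Biologicals in another, and both libraries were made by ChIPmentation, in which a transposase adds the sequencing adaptors to chromatin on the beads. The Novus list held 3564 peaks. IgG and TOP2A libraries were not analysed here. With 1 library per antibody there was no replicate error, the lists carried no read numbers, and the intervals below cover counting error only. A thymus holds thymocytes of several stages together with a few other cells, and positions of peaks do not allow the labelled cell type to be checked against expressed markers.

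Topoisomerase IIβ, encoded by Top2b, relieves torsional stress by cutting both strands of a DNA helix, leading a second helix through the gap and sealing it again, and is the main type II topoisomerase of cells that do not divide. It is known to bind promoters, enhancers and the insulator sites that CTCF shares with cohesin. Introns close to a start often hold enhancers and alternative starts of the gene around them, whereas the promoter itself was excluded from the peaks described here by the distance of 1 kb.

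Sequences of 11 peaks are shown first as examples of 4 motifs that were found in a larger share of the peaks than of the windows that tile the same introns. Of these 4, the CTCF core also differed from both other sets of peaks compared below. Each is a whole peak, written 5′ to 3′ on the strand that reads the motif forward, from the mm9 genome, with the motif in capitals. The first 3 hold the core of the CTCF motif. They lie in Csk, which encodes the kinase that restrains Lck and Fyn (chr9:57477100-57477286, + strand), in Bach2, which encodes a transcriptional repressor of lymphocytes (chr4:32335423-32335609, − strand), and in Stat5b, which encodes a transducer of cytokine signals (chr11:100694946-100695132, + strand). The cores of Csk and Stat5b had no mismatch and that of Bach2 had 1.
Csk: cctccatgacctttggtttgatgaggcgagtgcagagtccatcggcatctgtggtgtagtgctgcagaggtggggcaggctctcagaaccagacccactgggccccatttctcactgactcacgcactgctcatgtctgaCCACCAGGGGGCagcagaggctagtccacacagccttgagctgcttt
Bach2: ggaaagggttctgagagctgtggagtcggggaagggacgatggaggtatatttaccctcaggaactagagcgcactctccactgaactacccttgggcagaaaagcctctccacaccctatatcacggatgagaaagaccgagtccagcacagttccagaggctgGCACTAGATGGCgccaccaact
Stat5b: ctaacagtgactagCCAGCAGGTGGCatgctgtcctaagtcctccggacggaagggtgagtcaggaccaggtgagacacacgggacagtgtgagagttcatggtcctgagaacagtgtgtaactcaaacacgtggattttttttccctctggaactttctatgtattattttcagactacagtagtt

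The next 3 peaks hold the motif of ETS factors, a family that includes regulators of lymphoid genes. They lie in Prex1, which encodes an exchange factor for Rac (chr2:166457422-166457608, + strand), in Bcor, which encodes a corepressor that binds BCL6 (chrX:11733687-11733873, − strand), and in Pde10a, which encodes a phosphodiesterase (chr17:9049586-9049772, + strand).
Prex1: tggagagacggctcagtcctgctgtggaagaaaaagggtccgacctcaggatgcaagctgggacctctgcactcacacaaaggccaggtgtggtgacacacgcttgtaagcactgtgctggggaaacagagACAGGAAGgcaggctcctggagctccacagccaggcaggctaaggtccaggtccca
Bcor: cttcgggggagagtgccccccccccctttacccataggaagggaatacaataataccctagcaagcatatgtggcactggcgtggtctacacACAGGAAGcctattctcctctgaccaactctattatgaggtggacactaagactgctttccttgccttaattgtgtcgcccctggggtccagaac
Pde10a: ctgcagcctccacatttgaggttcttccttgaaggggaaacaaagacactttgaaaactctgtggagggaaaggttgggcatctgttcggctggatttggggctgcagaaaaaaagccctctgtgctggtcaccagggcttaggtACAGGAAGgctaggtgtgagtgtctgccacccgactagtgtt

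The following pair holds the motif of RUNX factors, which act throughout T-cell development. They lie in Themis, needed for thymocyte selection (chr10:28397526-28397712, + strand), and in Ccr9, a chemokine receptor that guides precursors to the thymus (chr9:123663508-123663694, + strand).
Themis: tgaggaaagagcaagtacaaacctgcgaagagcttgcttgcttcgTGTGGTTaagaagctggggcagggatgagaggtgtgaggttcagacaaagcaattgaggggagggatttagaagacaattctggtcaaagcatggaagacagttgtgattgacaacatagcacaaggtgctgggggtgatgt
Ccr9: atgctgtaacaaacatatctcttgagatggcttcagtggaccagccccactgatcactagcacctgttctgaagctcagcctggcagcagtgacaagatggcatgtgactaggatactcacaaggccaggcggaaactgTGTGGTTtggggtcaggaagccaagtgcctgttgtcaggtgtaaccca

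The last 3 peaks hold the E-box CAGCTG, a palindrome read by basic helix-loop-helix factors such as the E proteins. They lie in Satb1, which encodes an organiser of thymocyte chromatin (chr17:51880317-51880503, + strand), in Bach2 (chr4:32345105-32345291, + strand) and in Dntt, which encodes terminal deoxynucleotidyl transferase (chr19:41113677-41113863, + strand). The second Bach2 peak lies in the same gene as the CTCF example but holds no CTCF core, so that single host genes held peaks of unlike sequence.
Satb1: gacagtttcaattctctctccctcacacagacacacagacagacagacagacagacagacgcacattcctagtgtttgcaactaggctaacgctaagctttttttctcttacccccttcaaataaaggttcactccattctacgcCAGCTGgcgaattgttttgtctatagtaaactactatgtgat
Bach2: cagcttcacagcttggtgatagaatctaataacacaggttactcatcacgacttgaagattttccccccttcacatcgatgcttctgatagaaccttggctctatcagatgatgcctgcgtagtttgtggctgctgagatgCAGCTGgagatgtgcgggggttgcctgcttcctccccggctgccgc
Dntt: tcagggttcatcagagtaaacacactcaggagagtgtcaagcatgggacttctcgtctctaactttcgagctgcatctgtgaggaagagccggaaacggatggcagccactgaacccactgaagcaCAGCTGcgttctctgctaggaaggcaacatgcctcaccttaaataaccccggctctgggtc

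The introns that meet the same conditions of position spanned 351 Mb, or 13.3% of chromosomes 1 to 19 and X, and held 9.46 of the peaks per Mb. This was 1.49 times the 6.35 Santa Cruz peaks without a Novus overlap per Mb of all these chromosomes. Lengths here include unassembled bases, which can hold no peak and so lower the densities of the sequence they lie in. Introns farther than 20 kb from a start held 6.17 per Mb, sequence between genes within 20 kb of a start 7.84 per Mb, sequence between genes farther away 3.56 per Mb, and the 1 kb around starts 41.2 per Mb. The density in near-start introns was thus between those of promoters and of introns far from any start. By chromosome it ran from 3.43 per Mb on chromosome X and 6.77 on chromosome 3 to 12.8 on chromosome 11.

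Distance to the nearest start had a median of 7.51 kb (quartiles 3.56 and 12.9). Density was highest next to the promoter. From 1 to 2 kb, 402 peaks amounted to 13.7 per Mb of intron (95% Poisson interval 12.4 to 15.1), against 10.2 from 2 to 3 kb (9.01 to 11.4) and 9.45 from 3 to 5 kb (8.61 to 10.3). Beyond that it changed little, with 8.98 per Mb from 5 to 10 kb, 8.81 from 10 to 15 kb and 8.82 from 15 to 20 kb (8.11 to 9.58). Santa Cruz peaks without a Novus overlap between genes fell from 9.54 per Mb at 1 to 2 kb to 7.20 at 2 to 3 kb and lay at 7.55 at 15 to 20 kb, so that the density in introns was above that between genes in each of the 6 distance ranges.

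**Figure D1:**
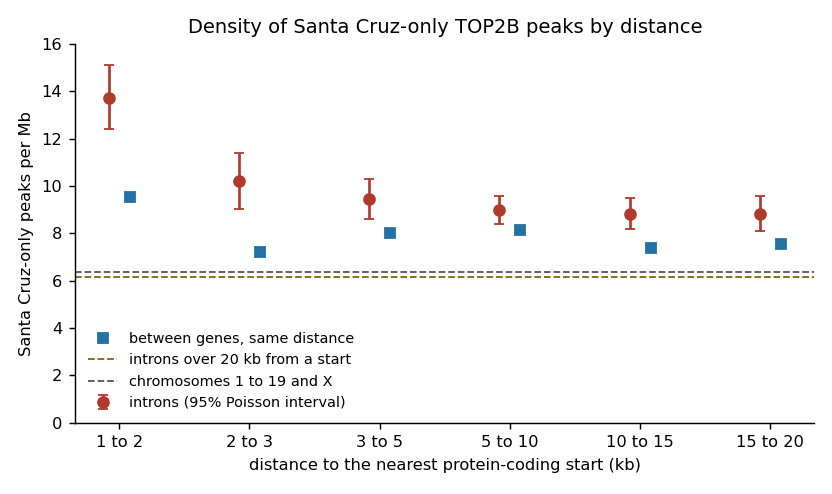
Santa Cruz-only TOP2B peaks per Mb of sequence (y axis) by distance to the nearest protein-coding start in kb (x axis), in introns (circles, bars are 95% Poisson intervals for counting error) and between genes at the same distance (squares). Introns start at 13.7 per Mb and level off near 8.8, above the dashed lines at 6.17 for introns over 20 kb from a start and at 6.35 for all of chromosomes 1 to 19 and X.

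First introns of protein-coding transcripts held 1651 of the 3326 peaks, or 49.6% (47.9 to 51.4), and 45.8% of the sequence of near-start introns. In density this was 10.3 peaks per Mb in first introns against 8.79 in later ones. At 1 to 2 kb from a start 75.1% of the peaks and 69.7% of the sequence were in a first intron, and at 15 to 20 kb 31.7% and 33.9%, so the excess in first introns was seen near the start and not at the far end. A start of a transcript that is not protein-coding lay within 1 kb of 225 of the peaks (6.76%).

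The nearest Novus peak lay far from most of these Santa Cruz peaks. The bases between a peak and the closest Novus peak had a median of 106 kb (quartiles 37.2 and 262), and 1711 peaks (51.4%) were more than 100 kb away. Only 53 (1.59%) had a Novus peak within 1 kb, 19 of them within 100 bp. Of all 3470 Santa Cruz peaks in near-start introns, 144 (4.15%, 3.51 to 4.87) shared bases with a Novus peak, against 265 of 2691 (9.85%, 8.75 to 11.0) within 1 kb of a start and 160 of 3537 (4.52%) in introns farther away. The shares in near and far introns differed by less than their counting error. Novus peaks without a Santa Cruz overlap were also found in near-start introns, 370 of them or 1.05 per Mb.

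The limits of the rule cut through a continuous range of positions. Just inside the distance of 1 kb were peaks of Gne and Satb1 at 1003 bp from a start, and just outside was a peak of Ppia at 997 bp. Just inside 20 kb was a peak of Cd86 at 19999 bp, and just outside was a peak of Slc13a3 at 20011 bp. Of the peaks kept, those closest to a Novus peak lay in Camta1, where the peaks touch with no base between them, in Abi2, with 2 bp between them, and in Pde4d, with 8 bp. The smallest overlap that took a peak out of the set was one of 4 bp in Prim2.

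Of 18704 protein-coding genes with near-start intron sequence, 2670 held at least 1 of the peaks, or 14.3%. A single peak was found in 2144 of them, 2 in 384 and 3 or more in 142. For 2908 peaks (87.4%) the nearest start was one of the host gene itself, and for 418 it belonged to another gene. Another Santa Cruz peak lay within 5 kb of 524 of the peaks (15.8%), and the median to the next was 19.5 kb. Most host genes thus held a single peak of this set, and Santa Cruz peaks elsewhere in these genes are not part of these counts.

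The 10 host genes with the most peaks, with ties taken in genome order, included gene models of unusual span. Prex1 held 8 peaks in 85.4 kb of near-start intron, which is 93.7 per Mb. Bcor held 8 in 86.8 kb, all of them in first introns of its transcripts, at 1.11 to 17.0 kb from a start. Rreb1, a zinc finger factor that responds to Ras, held 6 in 126 kb, as did Pde10a in 191 kb and D18Ertd653e in 56.8 kb. Map4k4, a kinase upstream of JNK, held 5 in 56.7 kb, Pip4k2a, a phosphoinositide kinase, 5 in 94.2 kb, and Med12l, related to a Mediator subunit, 5 in 182 kb. Further genes with 5 peaks, among them Map3k1 and Inpp4b, stand after these in genome order. Gm20388 and Fgfr2, also among the 10 genes with the most, are annotated over 4.43 and 3.01 Mb, so that their 38 and 8 peaks come from spans that include other genes, and 21 of the 38 peaks in Gm20388 also lie in a shorter gene. Only 36 of the 3326 peaks (1.08%) had no host but a model of over 1 Mb.

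Among genes of T-cell receptor signalling, 16 of 31 with near-start intron held a peak, or 51.6% (33.1 to 69.8), against 14.3% of all genes. In density this was 27.7 peaks per Mb of their near-start introns, against 9.47 over all genes. This list and those below were chosen with earlier results of these data known, so their shares are a description and not a test. Fyn, a Src-family kinase next to the receptor, held 4 peaks at 3466, 9235, 13165 and 14028 bp from the nearest start. Themis held 3 at 9180, 12460 and 19037 bp, all in its first intron. Nfatc3, a calcium-regulated transcription factor, held 2 at 3.37 and 13.0 kb, and Csk 2 at 5.02 and 8.61 kb. Peaks at these genes were therefore spread over the whole range of distances and were not gathered at its inner end.

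Genes of the receptor itself and its coreceptors were fewer. Of 14 genes 4 held a peak, or 28.6% (8.39 to 58.1), with 38.9 peaks per Mb in 180.0 kb of near-start intron. Cd247, which encodes the ζ chain of the receptor complex, held 3, which is 158 per Mb, at 1202, 2279 and 8015 bp from the start. Cd3e, which encodes the ε chain of CD3, held 2 in 8.54 kb, at 1.80 and 9.76 kb. Cd8b1, for the β chain of the CD8 coreceptor, and Cd6, for a surface glycoprotein of T cells, held 1 each, at 11.2 and 7.88 kb. The interval of the share includes the 14.3% of all genes.

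Transcription factors of the T lineage held a peak in 14 of 30 genes, or 46.7% (28.3 to 65.7), with 25.8 peaks per Mb. Satb1 held 4, at 1.00, 1.63, 4.13 and 16.8 kb from the nearest start. Bach2 held 3, at 4.81, 14.5 and 17.8 kb. Gata3, which encodes a factor needed in early T-cell development, held 2 at 1.00 and 7.09 kb. Satb1 and Gata3 thus had peaks at the inner limit of the range, whereas those of Bach2 were all beyond 4 kb.

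Cytokine receptors and homing genes held a peak in 11 of 26 genes, or 42.3% (23.4 to 63.1), with 25.7 peaks per Mb. Ccr9 held 2, at 12.7 and 15.8 kb from the nearest start. Stat5b held 2, at 4.74 and 11.2 kb. Il2ra, which encodes the α chain of the IL-2 receptor, held 1 at 10.9 kb, with a Novus peak 3.77 kb away. No peak of these 3 genes lay within 4 kb of a start.

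**Figure D2:**
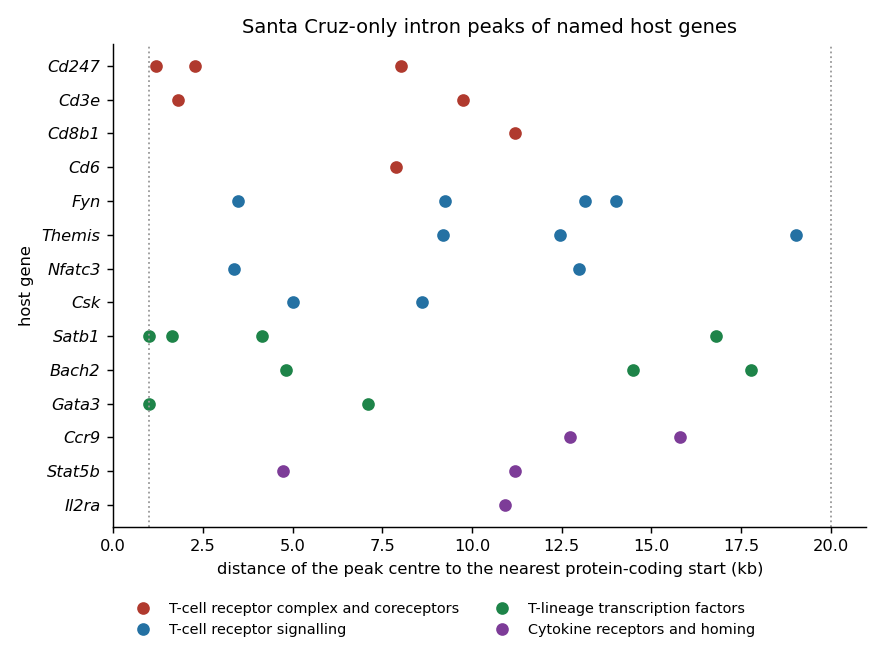
Distance in kb from the centre of each Santa Cruz-only intron peak to the nearest protein-coding start (x axis) for 3 or 4 host genes of each of 4 lists (y axis, coloured by list), with dotted lines at the 1 and 20 kb of the rule. Peaks of Satb1 run from 1.00 to 16.8 kb, and those of Themis from 9180 to 19037 bp.

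Other lists lay near or below the share of all genes. Genes of V(D)J recombination and the pre-T-cell receptor held a peak in 2 of 16 (12.5%), namely Xrcc6, which encodes Ku70, and Dntt. Genes of survival and death held one in 2 of 17 (11.8%), which were the antiapoptotic Bcl2 and Bcl2l1. Of the topoisomerase, cohesin and CTCF genes 1 of 19 (5.26%) did, the cohesin subunit Stag1 with 2 peaks in 132 kb. Immediate early genes did so in 2 of 18 (11.1%), with 2 peaks in Fosl2 and 1 in Dusp5. Their near-start introns were short, with a median of 0.785 kb per gene against 16.4 kb over all genes. In density they had 43.1 peaks per Mb, above the 9.47 of all genes, but this rests on 3 peaks in 69.7 kb. The intervals of all 4 shares included 14.3%.

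Genes of other tissues were tried in the same way. None of 15 B-cell genes (exact upper limit 21.8%) and none of 17 liver genes (19.5%) held a peak. The myeloid list had 1 of 10, Itgam, which encodes an integrin chain, the neuronal list 3 of 18 (16.7%), among them Rbfox3 with 2 peaks and Grin2b with 1, and the muscle list 1 of 17, with 2 peaks in Neb, the gene of nebulin. In density the neuronal and muscle lists had 4.32 and 3.84 peaks per Mb, below the 9.47 of all genes, while their shares had intervals that include 14.3%.

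**Figure D3:**
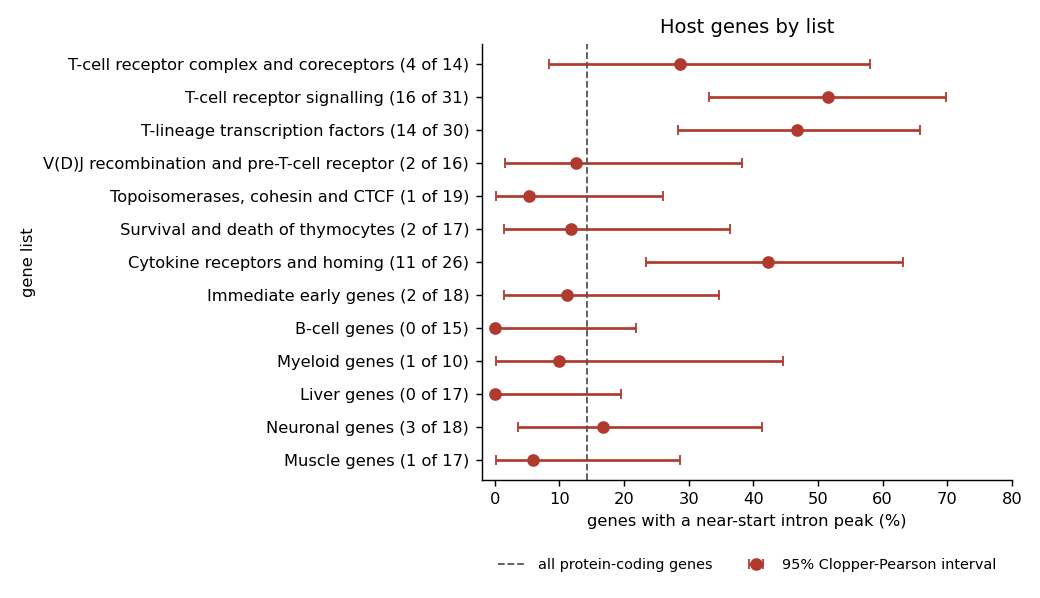
Percent of genes that hold at least 1 Santa Cruz-only near-start intron peak (x axis) in each gene list (y axis, with counts), with 95% Clopper-Pearson intervals and a dashed line at the 14.3% of all protein-coding genes. The intervals of the T-cell receptor signalling, T-lineage transcription factor and cytokine receptor and homing lists lie wholly to the right of the line. The lists were chosen with earlier results of these data known, and the intervals make no allowance for the number of lists.

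Novus peaks in the near-start introns of the same genes, with or without a Santa Cruz overlap, were far fewer. They occurred in 506 of the 18704 genes, or 2.71%. On the T-cell receptor signalling list 3 of 31 genes had one (Fyn, Prkcq and Rasgrp1), on the transcription factor list 2 of 30 (Bach2 and Zeb1), and on the cytokine receptor and homing list 2 of 26 (Il2ra and Stat5a). A single gene had one on each of 4 other lists, namely Cd28 of 14 receptor and coreceptor genes, Dclre1c of 16 recombination genes, Top2b itself of 19 topoisomerase, cohesin and CTCF genes, and Camk2a of 18 neuronal genes. No gene of the survival, immediate early, B-cell, myeloid, liver and muscle lists had one. With so few Novus peaks the lists cannot be ordered by these counts. Among genes with more than 15 kb of near-start intron, 206 of 2154 genes with a Santa Cruz-only peak there (9.56%, 8.35 to 10.9) also had a Novus peak in near-start introns, against 228 of 7645 without (2.98%, 2.61 to 3.39). These intervals do not overlap, although lengths of near-start intron were not matched further within this class.

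Promoters were compared next. A Santa Cruz peak lay within 1 kb of a start in 538 of the 2670 host genes (20.1%, 18.6 to 21.7) and in 2035 of the 16034 other genes (12.7%, 12.2 to 13.2). Among genes with more than 15 kb of near-start intron the shares were 21.3% (19.6 to 23.1) and 14.7% (13.9 to 15.5). With 5 to 15 kb they were 14.9% (11.6 to 18.8) and 11.8% (10.8 to 12.8), and with under 5 kb 16.7% (10.3 to 24.8) and 9.93% (9.04 to 10.9), so that the share was higher in host genes in all 3 classes but the intervals overlapped in both classes with less intron. Novus peaks at starts were found in 8.17% (7.05 to 9.41) and 7.27% (6.70 to 7.88) of the genes with more than 15 kb, whose intervals overlap. For 2132 host genes there was no Santa Cruz peak at any start. By list, a Santa Cruz peak lay at a start in 17 of 31 T-cell receptor signalling genes and 12 of 30 T-lineage transcription factors. The same held for 7 of 26 cytokine receptor and homing genes, 2 of 15 B-cell genes and 0 of 17 liver genes, against 2573 of all 18704. Higher shares on these T-cell lists were thus also seen at promoters, though these shares were not tested. Among the genes named above, Satb1, Gata3, Bach2, Prex1 and Bcor had a Santa Cruz peak at a start, and Cd247, Cd3e and Themis had none.

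Motifs were then compared, since the rule had not used the sequence. The 14 searched on both strands were the CTCF core with up to 1 mismatch, a κB motif, the CCAAT box, the motifs of ETS (ACAGGAAG), RUNX (TGTGGTT), TCF/LEF (CTTTGAT), AP-1 (TGAGTCA or TGACTCA), NFAT (TGGAAA), Ikaros (CTGGGAA) and GATA factors (AGATAAG), the E-box (CAGCTG), the GC box (GGGCGG), the CRE (TGACGTCA) and the heptamer of recombination signal sequences (CACAGTG). No spelled motif lies whole within another, but matches can overlap. The background was all 1814698 windows of the width of a peak that tile near-start introns. A match is a description of the letters and not a bound site.

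The CTCF core stood out. It was found in 309 of the 3326 peaks, or 9.29% (8.32 to 10.3), against 2.03% of all windows, and with no mismatch in 2.89% against 0.119%, as in the Csk and Stat5b sequences above. Peaks were richer in GC than the windows (median 48.1% against 43.9%), and with the windows weighted to the GC content of the peaks the ratio was 3.83. It ranged from 3.43 in sequences of at least 60% GC to 4.69 in those below 40%. Matches were centred on the peaks, with 0.571 per kb in the central 100 bp and 0.136 per kb at 500 to 1000 bp from the centre. This ratio of 4.19 was close to the 4.08 of Santa Cruz-only peaks in introns over 20 kb from a start. In peaks of near-start introns with a Novus overlap it was 9.23. Where the core was on 1 strand only, it lay on the strand of the host gene in 135 of 305 peaks (44.3%).

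Motifs of lymphoid factors were closer to the windows in frequency than the CTCF core was. The ETS motif was found in 3.37% of peaks and 1.80% of windows, a ratio of 1.61 at equal GC content. The E-box was in 12.1% against 7.80% (1.19 at equal GC content), RUNX in 5.89% against 4.99% (1.23) and the recombination heptamer in 7.40% against 5.33% (1.18). TCF/LEF and NFAT motifs were less common in peaks than in windows, at 2.10% against 3.21% and 13.0% against 17.0%, with ratios of 0.777 and 0.844 at equal GC content. In the central 100 bp against 500 to 1000 bp from the centre, ETS matches were 1.48 times, RUNX matches 1.31 times and TCF/LEF matches 0.752 times as dense. In Santa Cruz-only peaks of introns over 20 kb from a start these ratios were 2.36, 1.23 and 0.933.

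**Figure D4:**
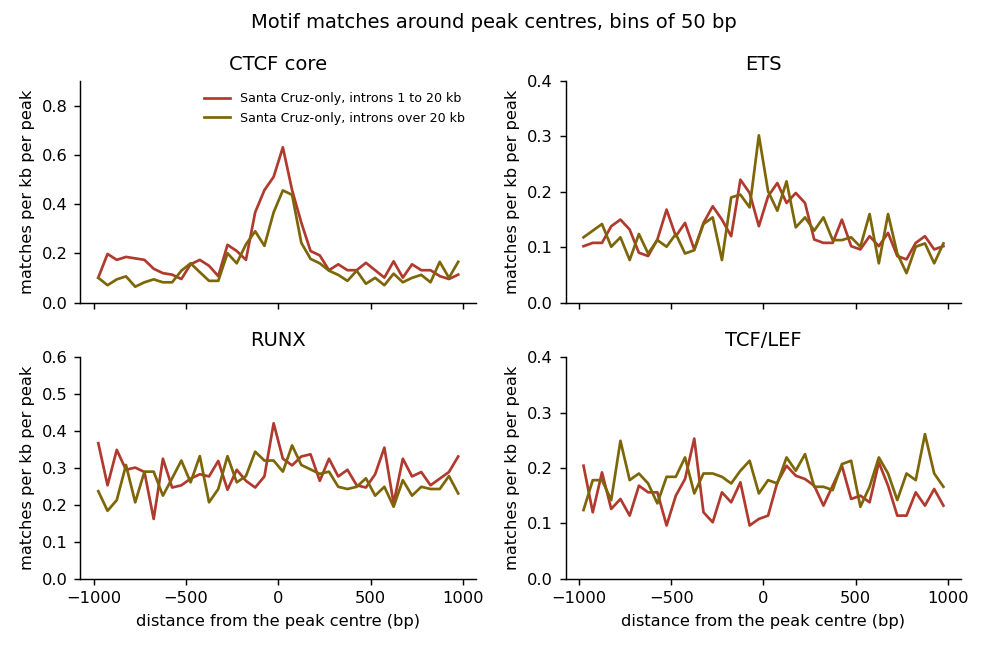
Matches per kb per peak (y axis) in bins of 50 bp against distance from the peak centre in bp (x axis) for 4 motifs, in Santa Cruz-only peaks of introns 1 to 20 kb and over 20 kb from a start. At the centre the CTCF core of the peaks near starts rises to 4.19 times its flanks, against 1.48 times for ETS, 1.31 times for RUNX and 0.752 times for TCF/LEF. In peaks over 20 kb from a start the CTCF core rises to 4.08 times and ETS to 2.36 times.

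Against the 3377 Santa Cruz peaks without a Novus overlap in introns over 20 kb from a start, the CTCF core was more frequent near starts, at 9.29% against 6.66% (adjusted p = 0.00106, two-sided Fisher's exact test with Benjamini-Hochberg adjustment over 30 comparisons). CpG-rich sequence, with GC over 50% and observed over expected CpG over 0.6, was found in 1.89% against 0.918% (adjusted p = 0.00801, exact test as above). NFAT motifs were less frequent near starts, at 13.0% against 15.4% (adjusted p = 0.0255, same exact test), and so were TCF/LEF motifs, at 2.10% against 3.14% (adjusted p = 0.0396, same exact test). In a Mantel-Haenszel chi-square test within strata of GC content the difference in NFAT did not pass (adjusted p = 0.106) and neither did that in TCF/LEF (adjusted p = 0.106), whereas that in the CTCF core did (adjusted p = 0.0126). With 1 peak per host gene the CpG-rich difference did not pass the exact test (adjusted p = 0.163). ETS motifs, at 3.37% and 3.70%, RUNX motifs, at 5.89% and 5.48%, and the E-box, at 12.1% and 11.1%, did not pass the test. In a wider sequence around the centre the E-box passed, at 29.0% against 24.9% (adjusted p = 0.00121, exact test), as did the GC box, at 9.53% against 6.87% (adjusted p = 0.000541, exact test).

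Against the 144 Santa Cruz peaks of the same introns that a Novus peak did overlap, the CTCF core was less frequent, at 9.29% against 29.2% (21.9 to 37.3, adjusted p = 1.47e-09 by the same exact test). CpG-rich sequence was also less frequent, at 1.89% against 6.25% (adjusted p = 0.0155, exact test). TCF/LEF motifs were less frequent too, at 2.10% against 6.94% (adjusted p = 0.0113, exact test), which rests on 10 overlapped peaks and did not pass the exact test in a wider sequence around the centre (adjusted p = 0.437). The quartiles of GC content were 43.3% and 52.4% in the near-start intron peaks and 45.5% and 53.1% in the overlapped ones. The differences of the remaining 12 motifs did not pass the exact test, with NFAT at 13.0% and 20.1% (adjusted p = 0.0638) and the heptamer at 7.40% and 2.78% (adjusted p = 0.106). In the wider sequence the ETS motif passed, at 8.60% and a difference from the overlapped peaks of -7.37 percentage points (adjusted p = 0.0162, exact test). With 144 peaks the intervals are wide, for instance 2.43 to 10.7% for the ETS motif.

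**Figure D5:**
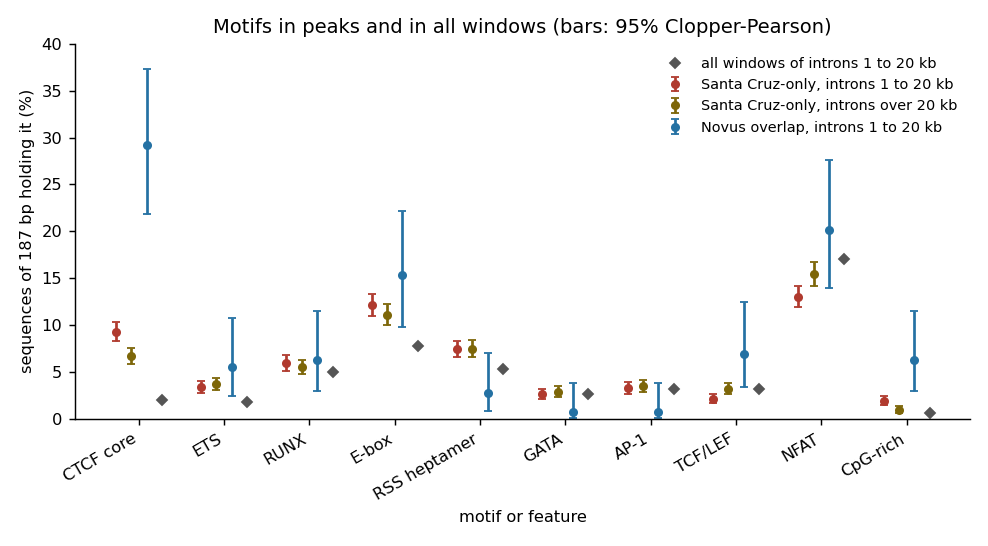
Percent of sequences of the width of a peak that hold each motif or feature (y axis, bars are 95% Clopper-Pearson intervals) in Santa Cruz-only peaks of introns 1 to 20 kb and over 20 kb from a start, in peaks with a Novus overlap 1 to 20 kb from a start, and in all windows of these introns (diamonds). The CTCF core runs from 2.03% of windows through 9.29% of the peaks described here to 29.2% of those with a Novus overlap.

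Among the near-start intron peaks themselves, sequence varied little with distance, apart from CpG-rich sequence. The latter was found in 4.42% (3.00 to 6.25) of the 679 peaks at 1 to 3 kb, in 1.52% at 3 to 10 kb and in 0.946% (0.490 to 1.65) at 10 to 20 kb. The CTCF core was found in 7.66% (5.77 to 9.92), 9.87% (8.35 to 11.6) and 9.54% (7.97 to 11.3) at these distances, with overlapping intervals. It was less frequent in first introns (7.69%, 6.45 to 9.08) than in later ones (10.9%, 9.42 to 12.5), while ETS motifs were found in 3.51% and 3.22% of these. Median GC content was 48.1% at 1 to 3 kb, 48.7% at 3 to 10 kb and 48.1% at 10 to 20 kb.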

How the data were processed

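TOP2B ChIPseq peaks of thymocytes were used as deposited, 1 list per antibody. Per the authors' methods, trimmed reads were mapped to mm9 (Bowtie 1.2.0), and peaks enriched over IgG were called in each library separately by HOMER, in its factor style. The deposited lists give positions only. Their score column, per the deposited files, holds 0 in every row, so strength was not used and depth per peak is unknown. Peaks are 187 bp wide in the Santa Cruz list and 195 bp in the Novus list.

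Starts, exons and genes were taken from GENCODE M1 (mm9), chromosomes 1 to 19 and X, using protein-coding transcripts. A peak was placed by its middle base. Sequences came from the mm9 genome. Shares have exact Clopper-Pearson intervals and densities exact Poisson intervals at 95%. Motif shares were compared with two-sided Fisher's exact tests, adjusted over 30 comparisons, with a threshold of 0.05. P-values treat peaks of 1 library as independent and do not cover variation between libraries, animals or antibodies. Whether chromatin came from 1 or several animals is not given in the sources used here. Genes were named as the 10 hosts with the most peaks and, for each of 13 lists, up to 4 genes by number of peaks and then genome order, besides the peaks at the limits of the rule. A few genes that this rule names are not reported here. Sequences were taken from these hosts, leaving out chromosome 18 and gene models over 1 Mb. The peaks and the gene lists were chosen with earlier results of these data known. The search, overlap and test code was tested on simulated data. Alternatives were other overlaps, distances, exons and starts, wider sequence, 1 peak per host gene and a Mantel-Haenszel chi-square test within 5 strata of GC content. Python 3.11.15, NumPy 2.4.6, pandas 2.3.3, SciPy 1.17.1, numba 0.67.0, statsmodels 0.14.6 and matplotlib 3.10.9 were used.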

Additional observations from a re-analysis of the deposited data

How the results depend on the processing

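The set and the shares that define it moved with the limits of the rule. An outer distance of 10 kb gave 2057 peaks, 12.3% of the Santa Cruz peaks without a Novus overlap, a density ratio of 1.56 and 58.2% in first introns. An inner distance of 2.5 kb gave 16.6%, a ratio of 1.42 and 45.1%, and starts of any annotated transcript gave 24.2%, 1.42 and 43.1%. Asking that no base of a peak lie in an exon gave 18.7%. The CTCF core was in 2.89% of peaks with no mismatch and in 16.2% of wider sequences around the peak centre. Against introns over 20 kb from a start, 5 motifs passed in the wider sequences (the CTCF core, NFAT, TCF/LEF, the E-box and the GC box), 1 with 1 peak per host gene and 1 within strata of GC content, in place of 3, and the CpG-rich difference fell to 0.689 percentage points with 1 peak per host gene. Against peaks with a Novus overlap the ETS motif took the place of TCF/LEF in the wider sequences, and 1 motif passed, in place of 2, when a Novus peak within 1 kb counted as overlap. The difference in the CTCF core passed in all of these fits, in both comparisons. Of 42 alternatives 24 left the value within its error, the count within 1.5 times, or the CpG-rich difference with its sign and test outcome. No paired analysis was possible because each antibody had 1 library. Depth is unknown and 1 library per antibody gives no replicate error, so a peak of the Santa Cruz list without a Novus overlap says only that no Novus peak was called there, in a list of 3564 peaks against 17754.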

Other observations

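Among the 1476 words of 6 bases without CpG, counted on both strands in the near-start intron peaks and in all windows of the same introns, the most over-represented was CTGCAG, at 1.69 times its frequency in the windows, and the next was CAGCTG, the E-box of the Satb1 and Dntt sequences, at 1.62 times. Words with CpG were more over-represented than these, up to 4.15 times for CGCGCC, and CTGCAG stood at rank 133 among all 2080 words. These ratios were not adjusted for GC content, which was higher in the peaks. The CTCF core was also found in 14.3% (12.9 to 15.8) of the Santa Cruz peaks without a Novus overlap that lie between genes within 20 kb of a start, in 5.40% (4.53 to 6.38) of those within 1 kb of a start, and in 12.4% (9.25 to 16.2) of the Novus peaks without a Santa Cruz overlap in near-start introns. The difference of these shares from the 9.29% of the near-start intron peaks was not tested.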
